A study of Mus musculus with 2 samples.

Results

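The Mir30 family comprises 6 mouse microRNA (miRNA) genes, Mir30a, Mir30b, Mir30c-1, Mir30c-2, Mir30d and Mir30e, and all 6 were found by symbol among the 1973 miRNA genes of the deposited tables. They were measured by sequencing of short RNAs, with a stated size range below 30 bases, from neural tube of B6NCrl mouse embryos at 15.5 days of development, the tissue that forms brain and spinal cord. There was 1 group with 2 libraries, labelled as biological replicates. Library 1 came from 78 and library 2 from 62 pooled healthy embryos, males and females mixed. Both pools carry the same donor label, and the labels name no genotype beyond the strain and no treatment. With 1 group no comparison between conditions could be made, and the data show how much of each Mir30 gene the tissue held, how the 3 genomic loci of the family compared, and by how much the pools differed.

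miRNAs are cut from hairpin-shaped precursors, loaded onto Argonaute proteins and pair with messenger RNAs through their seed, the bases 2 to 8 from the 5′ end, to repress them. Each precursor can give a mature RNA from its 5′ side (5p) and another from its 3′ side (3p). The Mir30 family is broadly expressed. Its 5p miRNAs are known to repress Snai1, a driver of epithelial-mesenchymal transition, and components of the Notch pathway such as Dll4. The members that share a primary transcript can be made together, but each mature RNA has its own stability.

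The family lies as 3 pairs. On chromosome 1, Mir30a (ENSMUSG00000065405.2, positions 23272269 to 23272339, plus strand) and Mir30c-2 (ENSMUSG00000065567.1, 23291701 to 23291784, plus strand) are separated by 19361 bases. Mir30a overlapped no other annotated gene, and Mir30c-2 lies within an exon of the lincRNA gene Gm27028. On chromosome 4, Mir30e (ENSMUSG00000065409.1, 120772606 to 120772697, minus strand) and Mir30c-1 (ENSMUSG00000065490.1, 120769534 to 120769622, minus strand) are 2983 bases apart. Both lie on the same strand in introns of Nfyc, which encodes a subunit of the transcription factor NF-Y, in all 6 annotated transcripts that span them. On chromosome 15, Mir30d (ENSMUSG00000065437.1, 68341208 to 68341289, minus strand) and Mir30b (ENSMUSG00000065476.2, 68337415 to 68337510, minus strand) are 3697 bases apart. Mir30d lies within an exon of the lincRNA gene Gm20732, and Mir30b overlaps the non-coding gene Gm26621 by 16 bases. Positions are on mm10 (GRCm38) from GENCODE M21, and that of Mir30a, whose identifier version differed there, is the same in RefSeq.

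**Figure D1:**
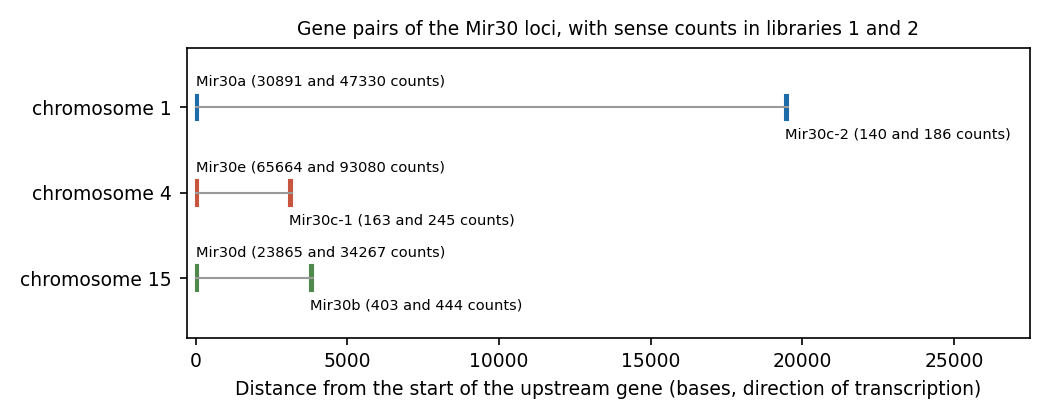
Positions of the gene pairs of the 3 Mir30 loci, drawn to scale as distance in bases from the start of the upstream gene in the direction of transcription, with the sense counts of libraries 1 and 2 beside each gene. In each pair the upstream gene, Mir30a, Mir30e or Mir30d, carries nearly all counts of its locus.

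The mature sequences are shown first because they set which members a short read can tell apart. They come from RefSeq (build GRCm38.p6), where 4 of the 6 members, Mir30a, Mir30c-1, Mir30c-2 and Mir30e, were matched by symbol. They are written 5′ to 3′ with the seed in capitals. The 5p seed is shared by all matched members, and the 3p arms fall into groups with different seeds.

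miR-30a-5p: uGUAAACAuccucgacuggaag

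miR-30e-5p: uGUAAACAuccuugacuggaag

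miR-30c-5p: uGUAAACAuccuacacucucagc

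miR-30a-3p: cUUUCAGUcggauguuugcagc

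miR-30e-3p: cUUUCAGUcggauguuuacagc

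miR-30c-1-3p: cUGGGAGAggguuguuuacucc

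miR-30c-2-3p: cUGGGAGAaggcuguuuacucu

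Counting positions from 1 at the 5′ end, miR-30a-5p and miR-30e-5p differ at a single base, C13U. Their 3p arms also differ at a single base, G18A. miR-30c-5p begins with the same 12 bases as miR-30a-5p and differs from it at 5 of 22 positions (C13A, G14C, G18C, G19U and A20C). The miR-30c-5p sequence occurs letter for letter in both the Mir30c-1 and the Mir30c-2 hairpin, so that a full-length read of it has 2 places of origin. Only the 3p arms of these genes differ, at 3 of 22 bases (G9A, U12C and C22U). Every other mature arm listed occurs letter for letter in 1 hairpin of the 1005 in the table, which does not hold all members. With 1 mismatch allowed, both arms of Mir30a and both arms of Mir30e match the hairpins of both genes.

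The 4 matched hairpins are shown with both mature arms in capitals, since they make visible that Mir30c-1 and Mir30c-2 differ outside the 5p arm.

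Mir30a (chr1:23272269-23272339, plus strand): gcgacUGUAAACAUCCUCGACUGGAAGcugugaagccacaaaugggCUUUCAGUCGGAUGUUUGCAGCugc

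Mir30c-2 (chr1:23291701-23291784, plus strand): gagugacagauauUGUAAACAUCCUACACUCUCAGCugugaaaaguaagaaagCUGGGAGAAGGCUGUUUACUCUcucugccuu

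Mir30e (chr4:120772606-120772697, minus strand): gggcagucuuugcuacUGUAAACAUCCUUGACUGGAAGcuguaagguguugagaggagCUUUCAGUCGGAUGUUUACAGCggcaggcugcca

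Mir30c-1 (chr4:120769534-120769622, minus strand): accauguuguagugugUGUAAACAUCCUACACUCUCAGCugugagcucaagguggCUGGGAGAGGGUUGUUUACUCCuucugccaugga

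Libraries 1 and 2 held 4228685 and 6039889 reads on the sense strand of a miRNA gene, and levels are given as CPM, counts scaled to a common total of 1000000. A gene was called detected with at least 10 counts in each library, which 363 genes reached. Reads aligned to several places, 29.4% and 29.7% of all reads, were assigned to no gene, and they outnumbered the reads of the Mir30 family 19.3-fold and 19.8-fold. Intervals are 95% intervals and cover counting error only, as PCR reads without molecular identifiers are not independent molecules. Among lists of miRNAs known from single tissues, the neural list (12 of 16 genes detected) reached 14445 and 15591 CPM, led by Mir137. The neuronal Mir124a-1 had only 8 and 17 counts. These leave out any of its reads that aligned to several places, whose part was not tested, so they do not show that its miRNA was scarce. The epithelial list (7 of 7) reached 5458 and 631 CPM, the mesenchyme and smooth muscle list (6 of 7) 22420.5 and 7594 CPM, and the leukocyte list (3 of 4, with Mir142b at 0 sense counts) 433 and 237 CPM. Mir142b entered that list by the start of its symbol, and no gene was found under the symbol Mir142. Its 0 counts are not read as a lack of leukocytes. The other 3 lists, endothelial, erythroid and liver, were within 1.5-fold between the libraries. In bulk tissue, fewer cells of a type and less RNA per cell cannot be told apart.

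By gene counts, the 6 genes fell into 3 abundant and 3 scarce members, with 1 of each kind at every locus. Reads aligned to several places are in none of these counts, and a full-length read of miR-30c-5p has 2 places of origin. The part of such reads in this split, and in the shares and family total that follow, was not tested. Mir30e, Mir30a and Mir30d held 99.5% ± 0.0597 of the family's counts (SD, n = 2), and Mir30b, Mir30c-1 and Mir30c-2 the remaining 0.541% ± 0.0597 (SD, n = 2). All 6 passed detection in both libraries. As a whole the family took 2.86% of the first library's sense counts (Wilson interval 2.85 to 2.88) and 2.91% of the second library's (2.89 to 2.92), a gap that exceeded counting error.

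Mir30e, of the Nfyc intron, was the most abundant member. It had 65664 counts in library 1 and 93080 in library 2, which is 15528 and 15411 CPM (mean 15470 ± 82.9, SD, n = 2), and it ranked 10 among all miRNA genes. The libraries were nearly level, with a coefficient of variation of 0.536%. The genes next above it in rank were Mir335 with 22340 ± 1833 CPM and Mir126a, an endothelial miRNA gene, with 20838 ± 1658 CPM. By distance of log2 CPM over both libraries, the genes most like it were Mir99b (0.20), Mir130a (0.21) and Mir149 (0.32). With only 2 libraries this likeness is mainly one of level.

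Mir30a, upstream member of the chromosome 1 pair, had 30891 and 47330 counts, or 7305 and 7836 CPM (mean 7571 ± 376, SD, n = 2), at rank 20. It was lower than Mir30e in each library, by 2.13-fold in library 1 (exact counting interval 2.10 to 2.15) and 1.97-fold in library 2 (1.94 to 1.99). Mir30d, upstream member of the chromosome 15 pair, had 23865 and 34267 counts, or 5644 and 5673 CPM (mean 5659 ± 21.1, SD, n = 2), at rank 26. In CPM, Mir30d was the most evenly measured of the family, with a coefficient of variation of 0.373%. With the library scaling used below to compare the pools, Mir30e was the most even. Its log2 ratio of library 1 to library 2 was -0.023, against -0.041 for Mir30d. Whether reads with a mismatch were counted is not given in the sources used here, and their part in the ratio of Mir30e to Mir30a was not tested. The level of Mir30a exceeded that of Mir30d by 1.29-fold in library 1 (1.27 to 1.32) and 1.38-fold in library 2 (1.36 to 1.40).

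The scarce members lay more than an order of magnitude lower. Mir30b had 403 and 444 counts, or 95.3 CPM (Wilson interval 86.4 to 105) and 73.5 CPM (67.0 to 80.7), at rank 209. Of all members it varied most between the libraries, with a coefficient of variation of 18.3%. Mir30c-1 had 163 and 245 counts, or 38.5 and 40.6 CPM, at rank 253. Mir30c-2 had 140 and 186 counts, or 33.1 and 30.8 CPM, at rank 258. In library 1 the ratio of Mir30c-1 to Mir30c-2 was 1.16 with an exact counting interval of 0.923 to 1.47, and in library 2 it was 1.32 (1.08 to 1.60), so their order was not resolved at the depth of library 1.

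**Figure D2:**
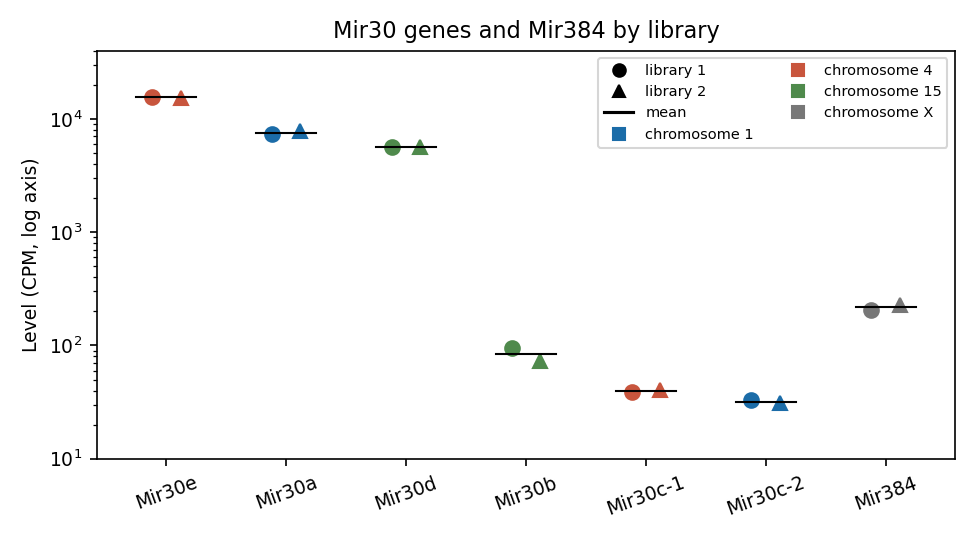
Level of each Mir30 gene and of the seed relative Mir384 in library 1 (circles) and library 2 (triangles), in CPM on a log axis, with the mean as a bar and the chromosome as colour. Mir30e, Mir30a and Mir30d sit at 5644 CPM or more in both libraries, and Mir30b, Mir30c-1 and Mir30c-2 sit below 100 CPM.

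The order Mir30e, Mir30a, Mir30d, Mir30b, Mir30c-1, Mir30c-2 was the same in each library, and in all 5 neighbouring pairs the library values of the higher gene exceeded those of the lower. Since 1 read covers a whole mature miRNA, CPM was not divided by gene length, which runs from 71 bases in Mir30a to 96 bases in Mir30b. Expressed per 100 bases of annotated gene, the level was 16815 CPM for Mir30e, 10663 CPM for Mir30a, 6901 CPM for Mir30d, 87.9 CPM for Mir30b, 44.4 CPM for Mir30c-1 and 38.0 CPM for Mir30c-2, and 0 of the members changed place.

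Read by locus, the chromosome 4 pair supplied the largest part of the family. Its share of the family's counts was 54.3% in library 1 (Wilson interval 54.1 to 54.6), and library 2 gave 53.2% (52.9 to 53.4), with a mean of 53.8% ± 0.838 (SD, n = 2). The chromosome 1 pair held 25.6% (25.4 to 25.9) and 27.1% (26.9 to 27.3), with a mean of 26.3% ± 1.02 (SD, n = 2). The chromosome 15 pair held 20.04% (19.8 to 20.3) and 19.8% (19.6 to 19.96), with a mean of 19.9% ± 0.186 (SD, n = 2). The shares of the 3 loci did not overlap between loci in either library. Between libraries, the chromosome 1 share was higher in library 2 and the chromosome 4 share higher in library 1 beyond counting error, whereas the intervals of the chromosome 15 share overlapped. In CPM the loci reached 15509 ± 81.6 on chromosome 4, 7603 ± 374 on chromosome 1 and 5743 ± 5.70 on chromosome 15 (SD, n = 2).

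**Figure D3:**
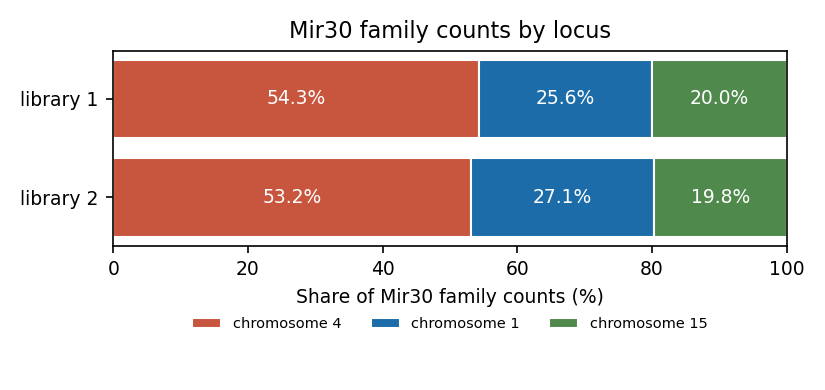
Share of the Mir30 family's sense counts that came from each locus, in percent, for libraries 1 and 2. Chromosome 4 holds 54.3% and 53.2%, chromosome 1 holds 25.6% and 27.1%, and chromosome 15 holds 20.04% and 19.8%.

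Within each locus the abundant gene exceeded its neighbour by a factor that differed between loci. The ratio of Mir30e to Mir30c-1 was 403 in library 1 (exact counting interval 345 to 473) and 380 in library 2 (335 to 432). The ratio of Mir30a to Mir30c-2 was 221 (187 to 262) and 254 (220 to 295). The ratio of Mir30d to Mir30b was lowest, with 59.2 (53.7 to 65.5) and 77.2 (70.3 to 84.9). The interval of each locus lay apart from those of the others in both libraries. For the chromosome 1 and 4 pairs the intervals of the libraries overlapped, and for the chromosome 15 pair they did not, with log2 ratios of 5.89 and 6.27.

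**Figure D4:**
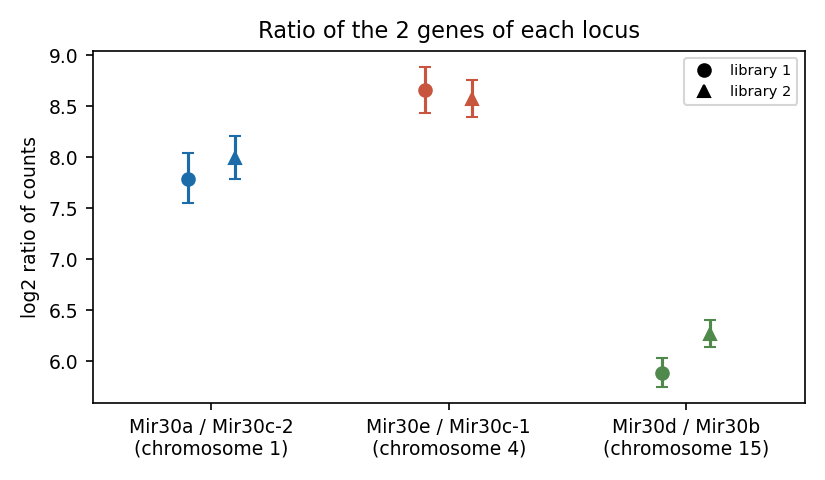
The log2 ratio of the counts of the upstream gene to the downstream gene at each Mir30 locus, in library 1 (circles) and library 2 (triangles), with 95% exact counting intervals. The libraries overlap for Mir30a to Mir30c-2 and for Mir30e to Mir30c-1, and lie apart for Mir30d to Mir30b at 5.89 and 6.27.

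The miR-30c-5p sequence printed above matches both Mir30c hairpins, and reads aligned to several places are counted under no gene in the deposited tables. A read of exactly that sequence would therefore be in neither count. Gene counts do not separate 5p from 3p reads. The 163 to 245 counts of Mir30c-1 and the 140 to 186 of Mir30c-2 may be 3p reads. They may also be 5p reads of other length or sequence, and how they divide was not tested. Across the tables, 85 genes have a mature arm that occurs in another hairpin of the RefSeq table, and 45 of these (52.9%) were detected, against 285 (34.3%) of the 831 genes with no such arm. The highest of them, Mir181a-1, reached 3235 CPM, compared with 174760 CPM for the highest gene without one. The medians of the detected genes were close, at 147 and 141 CPM. A gene was placed in the first set when any of its arms recurred, so reads of its other arm can still be counted. The comparison therefore does not measure how many reads a shared arm loses. The part of reads aligned to several places in the low counts of Mir30c-1 and Mir30c-2 was not tested. Nor was their part in the ratios at these loci, the locus shares and the family total.

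A miRNA gene outside the family shares the 5p seed. Among the 1738 mature sequences of the RefSeq table, the seed was found in 4, the 3 printed for Mir30 and miR-384-5p, from Mir384 on the X chromosome (105344282 to 105344369, minus strand). Mir384 is known from brain. Its sequence is shown to mark where the likeness ends.

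miR-384-5p: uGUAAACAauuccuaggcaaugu

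It shares the first 8 bases with miR-30a-5p and 12 of 22 positions in all. Mir384 had 878 and 1372 counts, or 208 CPM in library 1 and 227 CPM in library 2 (mean 217 ± 13.8, SD, n = 2), at rank 147. Its level lay below that of Mir30e by 74.8-fold in library 1 (exact counting interval 70.0 to 80.0) and 67.8-fold in library 2 (64.3 to 71.6). By gene counts it was above all 3 scarce members of the family in both libraries. Both mature arms of Mir384 occur in 1 hairpin of the RefSeq table, whereas a full-length read of miR-30c-5p has 2 places of origin. Reads aligned to several places are in none of these counts, so the comparison does not rank the mature miRNAs themselves.

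Mir30f, annotated on the plus strand over the same bases as Mir30e, has no row in the tables and was not analysed here. The reads on the strand opposite to Mir30e were 1 in library 1 and 0 in library 2. Both are under the limit of 3 counts, equal to 0.709 CPM at the depth of library 1 and 0.497 CPM at that of library 2. The remaining 5 members had 0 opposite-strand counts in both libraries.

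Next, the pools were compared gene by gene. An exact binomial test, two-sided, was run on each of the 363 detected genes against the share given by library sizes scaled with TMM (trimmed mean of M-values), with Benjamini-Hochberg adjustment over all of them. The test sets one library against the other, so it says nothing of conditions, and its only error is that of counting. Of the 6 Mir30 genes 4 were called at an adjusted p of 0.05, against a background of 49.9% of all detected genes. Higher in library 2 were 3 members, Mir30a, Mir30d and Mir30e (the last turned direction with library sizes alone), where 24.2% of all genes were, and higher in library 1 was 1 member, where 25.6% of all genes were. The median size of the log2 ratio was 0.089 for the 6 members and 0.20 for all detected genes. edgeR's exact test, which adds a spread between the libraries of 34.3% estimated from these data, called 0 of the 6 (edgeR adjusted p = 1 for each), against a background of 2.20% of all genes. At an unadjusted p under 0.05 it gave 0 of the 6 members and 14 of all 363 detected genes. Its spread was estimated from the same 2 libraries that it compares, so differences between them enter it. These 0 calls therefore do not show that the pools were alike.

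Mir30a was the abundant member that differed most, with a log2 ratio (library 1 over library 2) of -0.14 (exact counting interval -0.16 to -0.11, binomial adjusted p = 8.19e-37), which is 1.10-fold higher in library 2. Mir30e and Mir30d differed by far less, with log2 ratios of -0.023 (exact binomial adjusted p = 0.00476) and -0.041 (exact binomial adjusted p = 0.00180). Neither call is stable, since with library sizes alone Mir30e had a log2 ratio of 0.011, in the other direction (exact binomial adjusted p = 0.221), and Mir30d one of -0.0076 (exact binomial adjusted p = 0.669). That scaling moved the median of all genes from -0.0036 to 0.030.

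Mir30b was the only member of the family called higher in library 1, with a log2 ratio of 0.34 (0.14 to 0.54, exact binomial adjusted p = 0.00174), or 1.27-fold (1.10 to 1.45). The epithelial, mesenchyme and leukocyte lists were also higher in library 1, by 8.46-fold, 2.88-fold and 1.78-fold. Mir143 alone held 73.0% of the mesenchyme list, with 17950 and 3951 CPM. Mir140 of that list had a log2 ratio of -0.053, and its other detected genes were higher in library 1. In the leukocyte list Mir150 was near level, with a log2 ratio of 0.068, and Mir223 and Mir155 were higher in library 1. The part of these lists in the difference of Mir30b was not tested. Mir30c-1 and Mir30c-2 did not pass the test, with log2 ratios of -0.11 (-0.40 to 0.18, exact binomial adjusted p = 0.630) and 0.071 (-0.26 to 0.39, exact binomial adjusted p = 0.808). Both rest on fewer than 250 counts per library, and these intervals do not show that the libraries were alike. Mir384 had a log2 ratio of -0.16 (-0.29 to -0.040, exact binomial adjusted p = 0.0209).

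**Figure D5:**
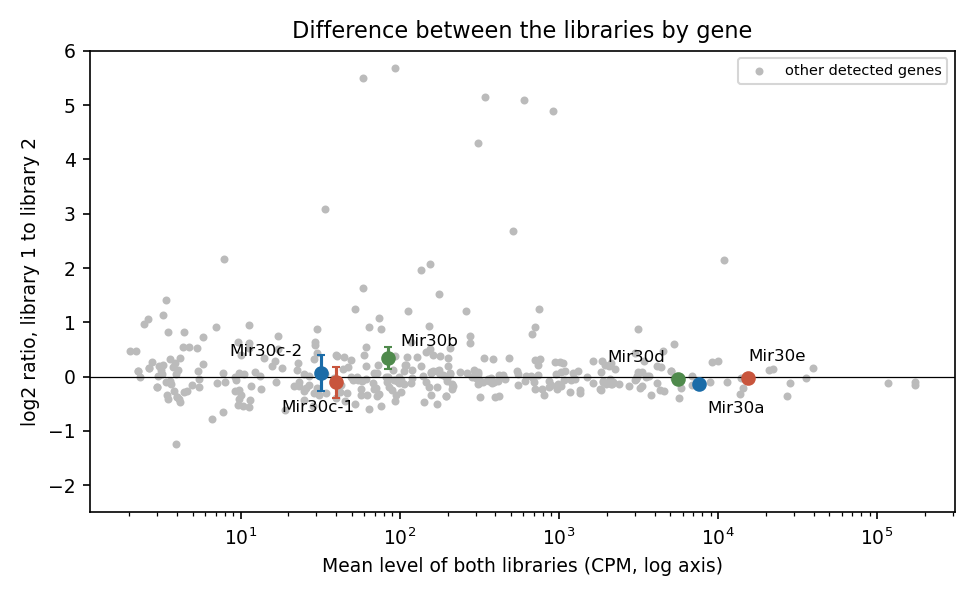
The log2 ratio of library 1 to library 2, scaled with TMM, against the mean level in CPM on a log axis, for the 363 detected genes (grey) and the Mir30 genes (coloured by chromosome, with 95% exact counting intervals). Mir30e, Mir30a and Mir30d lie between -0.14 and -0.023 (Mir30e at 0.011 with library sizes alone), and Mir30b lies at 0.34.

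For scale, 3 other families with members at several loci were summed the same way. The Mir30 family reached 28644 and 29065 CPM, the Mir181 family 16936 and 18380 CPM, the Mir26 family 11115 and 11688 CPM, and the Mir29 family 225 and 166 CPM. These 3 are examples and not the most abundant families, since the genes Mir10a, Mir10b, Mir99a, Mirlet7g and Mirlet7i each had a mean level above that of the whole Mir30 family, from 36012 to 174760 CPM. In the Mir26 family a single gene, Mir26b, took 99.8% of the counts, and in the Mir181 family Mir181c took 50.6%. All these sums and shares leave out reads aligned to several places, whose part in them was not tested. The leading locus of the Mir30 family took 53.8%. That is the share of a locus with 2 genes, nearly all of it from Mir30e, whereas the Mir26b and Mir181c shares are those of single genes.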

How the data were processed

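Short RNA was sequenced from 2 pools of neural tube. The authors deposited tables of unnormalized read counts for each miRNA gene, made on build mm10 with annotation M4 (per the accompanying README). Which aligner, counting tool and trimming were used is not given in the sources used here. Sense counts were read from a fixed column of the deposited tables, and that strand had the larger total in both libraries. The 4 entries that name no gene held 45.7% and 47.7% of the 7925935 and 11738914 reads and were left out. Symbols came from GENCODE M21 by identifier without version, which matched 1894 of 1973 genes.

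CPM is a count divided by the sum of sense counts and scaled to 1000000. Exact binomial tests used TMM sizes from edgeR 4.0.16 (R 4.3.3), a minimum of 10 counts in each library and Benjamini-Hochberg adjustment at 0.05. Shares carry Wilson intervals and ratios exact (Clopper-Pearson) intervals. Both tests were tested on simulated data, the binomial test with counting error only and edgeR's exact test with a given spread. Estimating the spread from 2 libraries was not tested. Named genes were the 6 members, genes with their 5p seed, the detected genes nearest to the leading member in rank or log2 CPM, host genes and 3 other families. Members and lists were chosen with earlier results of these data known. Alternatives were DESeq2 1.42.0 size factors, library sizes alone, other filters, counts from both strands, other denominators, edgeR's exact test and leaving out either library. Tables and plots used Python 3.11.15, scipy 1.17.1 and matplotlib 3.10.9.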

Additional observations from a re-analysis of the deposited data

How the results depend on the processing

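With counts from both strands the family's share was 2.84% in place of 2.89%, and as a share of all reads it was 1.51%. Of 363 genes 181 differed between the libraries, and edgeR's exact test gave 8. Under library sizes alone, DESeq2 size factors, no filter, at least 50 counts and both strands the number ran from 171 to 188. The log2 ratio of Mir30e turned to 0.011 with library sizes alone, where Mir30d lost its call and 2 of the 6 members were called, against 47.1% of all genes. Binomial adjusted p over the 5 alternatives ran from 3.82e-21 down to 1.84e-55 for Mir30a and from 0.00053 to 0.0089 for Mir30b. The locus shares and the ratios within the loci moved by less than the spread between the libraries under every alternative run for them. These alternatives could hardly move them further. Leaving out 1 of 2 libraries always moves a mean by less than their SD, and the members had almost no counts on the opposite strand. Leaving out Mir30c-1 and Mir30c-2 removed few counts. No alternative brought in reads aligned to several places. Scaled to all reads, each member's level was lower, and without the 3 most abundant genes in the total (an alternative chosen after seeing the data) it was higher, with 8107 and 28985 CPM for Mir30e. Without either library no test between libraries remains. No paired analysis was possible because the design has 1 group. Counts of 140 to 245 limit Mir30c-1 and Mir30c-2.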

Other observations

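The 4 matched Mir30 hairpins differed in predicted folding energy (RNAfold of ViennaRNA 2.7.2), with -51.8 kcal/mol for Mir30e, -37.2 for Mir30a, -34.3 for Mir30c-1 and -29.4 for Mir30c-2. Per 100 bases of hairpin the values were -56.3, -52.4, -38.5 and -35.0 kcal/mol in the same order, which is also the order of their levels. This is a description of 4 genes with no test, and Mir384, with more gene counts than Mir30c-1 and Mir30c-2, had -29.4 kcal/mol per 100 bases. These levels leave out reads aligned to several places.

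The 3p seed of Mir30a and Mir30e was found in no other of the 1738 mature sequences of the RefSeq table, which does not hold the arms of all 6 members. The 3p seed of Mir30c-1 and Mir30c-2 was also found in miR-6958-5p, whose gene Mir6958 had 12 counts in library 1 and 19 counts in library 2, or 2.84 and 3.15 CPM.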
